A study of Rattus norvegicus with 4 samples.

Results

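The transcription factor p53 is described here through 9 of its target genes, Mdm2, Cdkn1a, Gadd45a, Gadd45b, Ccng1, Plk3, Bbc3, Phlda3 and Tp53inp1. They were chosen by name, with earlier results of these data known. Their probes were found through the RefSeq accession of each spot, which gave 10 of 45598 probes and 9 of 16581 named genes. Cdkn1a had 2 probes and every other gene had 1. The gene that encodes p53 itself was not analysed here.

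RNA came from NR8383, an established line of rat alveolar macrophages, at 20 passages. The 4 samples form 1 group of cultures that were incubated for 4 h with the nanotube NRCWE055, a single-walled carbon nanotube in its pristine form, at a dose of 11 cm2/cm2. Each culture was hybridised to 1 one-colour Agilent array, and the study design calls the cultures biological replicates. Unexposed cells were not analysed here, so no value is a response to the nanotubes, and a single line stands for the cell type.

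In resting cells p53 is kept low by Mdm2, a ubiquitin ligase that marks it for degradation. DNA damage and other stresses stabilise p53, which then binds response elements near its target genes. Some of those targets halt the cell cycle, others promote cell death or damp survival signals, and Mdm2 itself is a target and closes a feedback loop. In macrophages, p53 activity is also known to cross with inflammatory signalling through NF-kB.

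Promoter windows are shown first because the genes were grouped as p53 targets. Whether p53 binds near each of them was not tested, and sites outside the windows were not searched. RefSeq windows on build GRCr8, from 250 bases before to 50 bases after the annotated start, were matched for 7 of the 9 genes. The p53 consensus decamer, which forms one part of a response element and reads alike on both strands, was searched without mismatch. It was present in 3 of these 7 windows, those of Cdkn1a, Gadd45a and Ccng1, and in 7.89% of 27457 rat promoter windows of the same length. The 3 windows are printed on the strand of the gene, with the decamer in capitals.
Cdkn1a, chr20:7150682-7150981, plus strand: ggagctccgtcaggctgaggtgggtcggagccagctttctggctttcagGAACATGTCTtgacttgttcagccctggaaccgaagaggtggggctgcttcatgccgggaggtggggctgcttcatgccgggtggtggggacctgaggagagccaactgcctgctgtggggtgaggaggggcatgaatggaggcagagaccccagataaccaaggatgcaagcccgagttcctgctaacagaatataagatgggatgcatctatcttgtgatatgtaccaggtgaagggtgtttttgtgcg
Gadd45a, chr4:97486750-97487049, minus strand: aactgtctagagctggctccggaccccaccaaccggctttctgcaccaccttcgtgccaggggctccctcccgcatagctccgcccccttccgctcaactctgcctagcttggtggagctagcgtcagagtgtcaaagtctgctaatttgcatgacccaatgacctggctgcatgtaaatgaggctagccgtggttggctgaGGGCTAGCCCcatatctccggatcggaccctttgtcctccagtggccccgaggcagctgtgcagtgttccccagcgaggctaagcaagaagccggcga
Ccng1, chr10:25684827-25685126, minus strand: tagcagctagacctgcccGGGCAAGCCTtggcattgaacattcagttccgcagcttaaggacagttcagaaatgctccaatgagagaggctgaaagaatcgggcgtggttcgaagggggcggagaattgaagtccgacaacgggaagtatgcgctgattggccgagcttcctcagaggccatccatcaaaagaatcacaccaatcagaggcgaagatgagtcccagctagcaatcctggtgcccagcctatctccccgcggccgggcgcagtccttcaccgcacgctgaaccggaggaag

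With the start base counted as 0, the decamer began at -201 in Cdkn1a, -48 in Gadd45a and -232 in Ccng1. A complete p53 response element holds a pair of decamers close together. Pairs were allowed at most 1 mismatch in all and a spacer of at most 13 bases, a definition chosen after the windows had been read. Such a pair always holds a perfect decamer, so only windows with a perfect decamer could have one. All 3 of those windows held a pair. Over all rat windows, 270 of the 2165 with a perfect decamer did, which is 0.983% of all windows. In Cdkn1a and Ccng1 a pair had no spacer, and in Gadd45a the decamers were parted by 11 bases. Cdkn1a held a further pair with the same perfect decamer, which began at -223, had a spacer of 12 bases and is not printed. The other pairs are printed to show how the imperfect decamer, in lower case, lies beside the perfect one.
Cdkn1a pair: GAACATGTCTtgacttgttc
Ccng1 pair: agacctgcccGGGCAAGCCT
Gadd45a pair: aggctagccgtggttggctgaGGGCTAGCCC

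Of the other motifs searched on both strands, CCAAT, bound by NF-Y, lay in 4 of the 7 windows and in 37.7% of all windows. The GC box GGGCGG, bound by Sp1, lay in 5 of 7 and in 34.9% of all. The 7 windows held 56.7% to 72.3% G and C, against a median of 52.3% over all windows. How far this composition bears on the motif shares was not tested. TATAAA lay in 0 of 7 and in 14.3% of all. Phlda3 alone had matches that overlapped, in 1 place, and the Plk3 window held none of the motifs searched. A match is a run of letters and not a measured binding site. The map of motif matches places the decamer far upstream in Cdkn1a and Ccng1 and close to the start in Gadd45a.

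**Figure D1:**
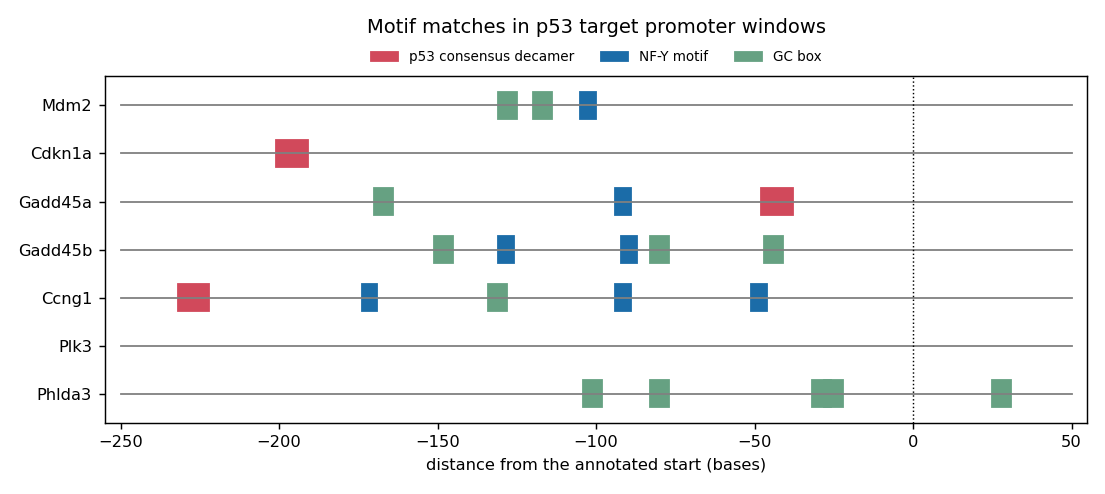
Motif matches in the promoter windows of 7 p53 target genes, drawn by distance in bases from the annotated start (dotted line). Red boxes are perfect p53 decamers, starting at -201 in Cdkn1a, -48 in Gadd45a and -232 in Ccng1; blue boxes are NF-Y motifs and green boxes GC boxes.

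Transcripts of all 9 genes were measurable in exposed NR8383 cells. The 9 of 9 genes and 10 of 10 probes were well above background on all 4 arrays, by the detection flag of the scanner software. Of all named genes 52.4% were, and of all named probes 51.2%. Because the 9 genes were chosen with earlier results of these data known, setting them beside these shares is no test of their detection. The dimmest signal of any of the 10 probes was 65.5, 101, 97.7 and 62.5 intensity units on replicates 1 to 4. The brightest of 308 negative control spots on an array read between 20.8 and 43.5. No spot of the 10 probes was saturated. Raw signals of a probe were 1.61 to 1.86 times higher on its brightest than on its dimmest array, and the arrays' own 75th percentile signals were 1756, 2631, 2861 and 1873. Levels were therefore set as log2 relative to that percentile. A probe's brightness also depends on its sequence, so levels are not compared between genes.

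Macrophage markers were present and those of other cells were mostly below detection. All 8 measured macrophage markers, such as Cd68 and Spi1, were well above background on every array. Of 17 measured markers of epithelium, fibroblasts, T cells, endothelium and neutrophils, 13 were above background on no array, 3 on some arrays and 1, the endothelial cadherin gene Cdh5, on all. Levels of different arrays correlated at 0.996 to 0.998 over 8685 detected genes. The source names of replicates 2, 3 and 4 end in other nanotube numbers than their titles do, and the titles were followed.

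Mdm2, the p53 ubiquitin ligase, varied little between arrays. Its probe, printed 2 times per array, read 327, 514, 546 and 369 intensity units on replicates 1 to 4. The scaled levels were -2.43, -2.36, -2.39 and -2.34, a mean of -2.38 ± 0.037 (SD, n = 4), and the highest and lowest arrays differed 1.06-fold. Replicate 1 was lowest and replicate 4 highest. Scaled on the spike-in probes, RNAs of the labelling kit, the SD of Mdm2 was 0.12. In limma's moderated F test over replicate spots, with Benjamini-Hochberg adjustment over 1742 probes printed several times, the arrays did not differ detectably (adjusted p = 0.864).

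Cdkn1a encodes p21, an inhibitor of cyclin-dependent kinases that halts the cell cycle. One probe, A_44_P914438, was printed 10 times per array and read 5288, 7807, 9206 and 5846 intensity units on replicates 1 to 4. Its scaled levels were 1.59, 1.57, 1.69 and 1.64, a mean of 1.62 ± 0.053 (SD, n = 4). Replicate 3 was highest and replicate 2 lowest, 1.08-fold apart, and the spots of the 4 arrays overlapped. On replicate 3 the spots ran from 1.56 to 1.88, and on replicate 2, where 1 spot was an outlier and was left out, the other 9 ran from 1.42 to 1.76. Compared spot by spot in the shared printing order, replicate 3 read above replicate 2 at every spot usable on both. The first spot, for example, was at 1.88 against 1.76. The difference between arrays missed the threshold (limma F test, adjusted p = 0.0722). That test did not pair spots by their place on the array, so neither it nor the overlap shows that the arrays were alike.

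The other Cdkn1a probe, A_44_P515275, was printed once per array and carries the same RefSeq accession. It read 65.5, 105, 97.7 and 62.5 intensity units on replicates 1 to 4. Scaled levels were -4.74, -4.65, -4.87 and -4.90, a mean of -4.79 ± 0.12 (SD, n = 4), and replicate 2 was highest where the probe with 10 spots was lowest. Both probes agreed on detection and not on level. As a measure of that disagreement only, the gap between them was 6.34, 6.22, 6.56 and 6.55 on the log2 scale on replicates 1 to 4, a mean of 6.41 ± 0.17, or 85.3-fold. Among the 1712 genes with several detected probes the median gap was 1.94, and 64 of them (3.74%) had a gap at least as large. From median signals with normexp correction the gap was 5.49. A statement about the Cdkn1a level thus depends on the probe, and which of them follows the transcript was not tested. The plot of signals and deviations by probe shows both.

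**Figure D2:**
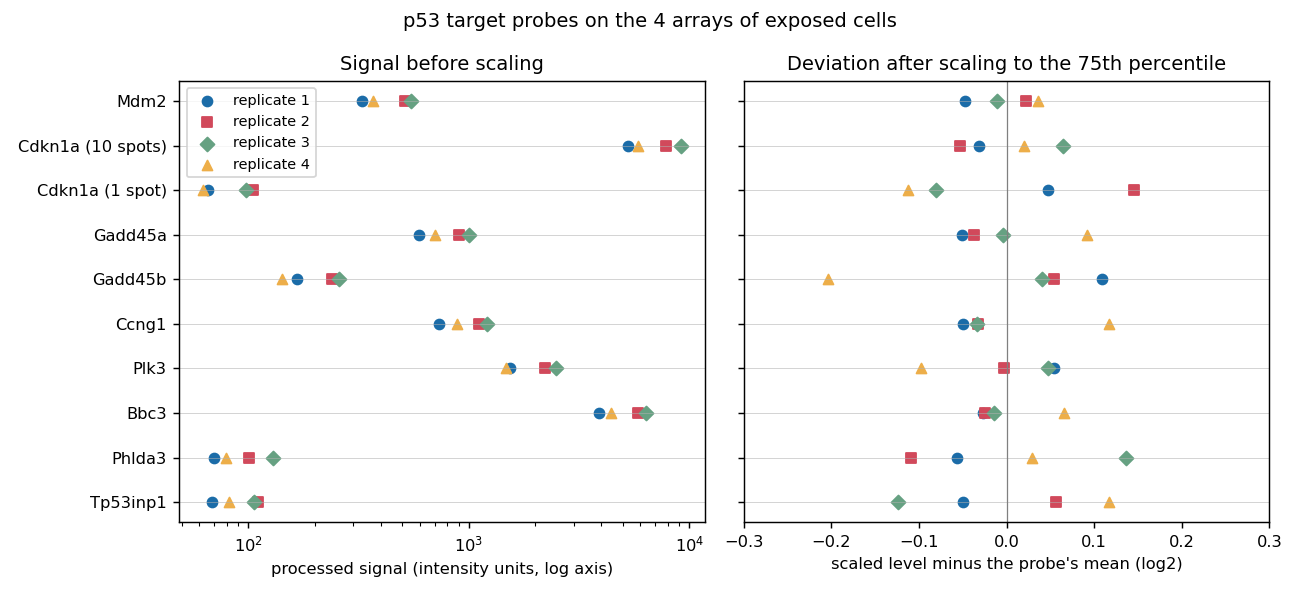
Processed signal on a log axis (left) and scaled level minus the probe's own mean in log2 (right) for the 10 p53 target probes, with 1 point for each of the 4 replicates. The Cdkn1a probe with 10 spots reads 5288 to 9206 intensity units and the one with 1 spot 62.5 to 105; on the right, replicate 4 lies highest for 5 probes and lowest for 3.

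Gadd45a and Gadd45b belong to one family of small acidic proteins that sense stress, bind the replication clamp PCNA and activate p38 and JNK signalling. Gadd45a is a classic p53 target, whereas Gadd45b is best known as induced by NF-kB and TGF-beta. Gadd45a read 595, 900, 1001 and 701 intensity units on replicates 1 to 4. Scaled, these gave -1.56, -1.55, -1.51 and -1.42, a mean of -1.51 ± 0.065 (SD, n = 4), with replicate 4 highest and replicate 1 lowest, 0.14 apart on the log2 scale. Without replicate 4 the SD was 0.020.

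Gadd45b had its lowest level on replicate 4. Its probe, printed 2 times per array, read 166, 240, 258 and 143 intensity units on replicates 1 to 4. After scaling the levels were -3.40, -3.46, -3.47 and -3.71, a mean of -3.51 ± 0.14 (SD, n = 4). Both spots of replicate 4, at -3.81 and -3.62, lay below every spot of the other arrays. Highest and lowest arrays differed 1.24-fold, which missed the threshold in the test over replicate spots (limma F test, adjusted p = 0.108). The adjusted p was 0.0456 without replicate 2, past the threshold, and 0.795 without replicate 4, where the SD fell to 0.040.

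Of the 3 probes printed several times, 0 passed the adjusted threshold of 0.05 in limma's moderated F test, and 1, the bright Cdkn1a probe, had an unadjusted p under 0.05. Over the whole array 42.8% of the 1742 probes printed several times passed the adjusted threshold, and 50.7% had an unadjusted p under 0.05. Among probes printed 10 times, as for Cdkn1a, 65.7% of 1038 passed. Among those printed 2 times, as for Mdm2 and Gadd45b, 9.09% of 704 did. With 1 array per culture this test cannot part cultures from labelling or hybridisation, and a missed threshold does not show that the arrays were alike. The plot of single spots gives the spread behind each value.

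**Figure D3:**
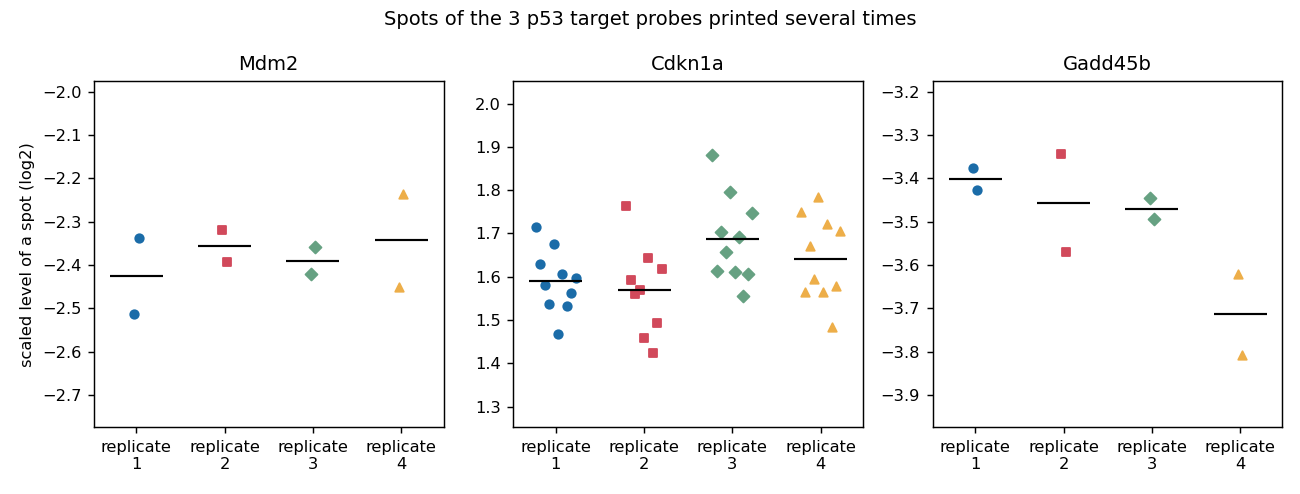
Scaled log2 level of each usable spot on replicates 1 to 4 for Mdm2 (2 spots per array), Cdkn1a (9 or 10 spots) and Gadd45b (2 spots); black lines are array means, and each panel spans the same height. Cdkn1a spots overlap between all arrays, while the Gadd45b spots of replicate 4, at -3.81 and -3.62, lie below the others.

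Ccng1 encodes cyclin G1, which recruits the phosphatase PP2A to Mdm2. It read 737, 1117, 1214 and 882 intensity units on replicates 1 to 4. The scaled levels were -1.25, -1.24, -1.24 and -1.09, a mean of -1.20 ± 0.078 (SD, n = 4). At this scaling replicates 1, 2 and 3 were nearly equal and replicate 4 stood above them. Without replicate 4 the SD was 0.0097. Over all 4 arrays it was 0.15 with spike-in scaling and 0.089 with normexp correction.

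Plk3 encodes polo-like kinase 3, a stress-activated kinase that can phosphorylate p53. Its signals were 1535, 2210, 2488 and 1473 intensity units on replicates 1 to 4. Scaled levels of Plk3 were -0.19, -0.25, -0.20 and -0.35, a mean of -0.25 ± 0.070 (SD, n = 4), so replicate 4 was the lowest of the arrays. Highest and lowest differed 1.11-fold, and without replicate 4 the SD was 0.029.

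Bbc3, also called Puma, encodes a BH3-only protein that sets off mitochondrial apoptosis. Signals of 3886, 5835, 6391 and 4422 intensity units were read on replicates 1 to 4. After scaling it stood at 1.15, 1.15, 1.16 and 1.24, a mean of 1.17 ± 0.044 (SD, n = 4). As for Ccng1, 3 replicates were close together at this scaling and replicate 4 was higher, the whole range being 1.07-fold. Without replicate 4 the SD was 0.0029. Over all 4 arrays it was 0.12 with spike-in scaling and 0.128 with normexp correction.

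Phlda3 encodes a pleckstrin homology domain protein that restrains the survival kinase Akt. It read 69.7, 101, 130 and 79.0 intensity units on replicates 1 to 4. The scaled levels were -4.65, -4.71, -4.46 and -4.57, a mean of -4.60 ± 0.11 (SD, n = 4), with replicate 3 highest. The raw spot was only 2.88 to 3.67 times its local background.

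Tp53inp1 encodes a nuclear stress protein that promotes p53-dependent death and autophagy. Its signals were 68.5, 110, 106 and 82.0 intensity units on replicates 1 to 4. The scaled levels were -4.68, -4.57, -4.75 and -4.51, a mean of -4.63 ± 0.11 (SD, n = 4). Replicate 4 was highest and replicate 3 lowest, 1.18-fold apart, and the raw spot was 2.76 to 3.88 times its local background.

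The 7 probes printed once have no replicate spots, so their differences between arrays were not tested. The scanner software's own error estimate for a spot was 10.0% to 12% of its signal over the 10 probes. It is not a spread measured over replicate spots. For the Cdkn1a probe with 10 spots the estimate was 10.0%, and the SD of its spots on an array was 0.072 to 0.10 on the log2 scale. Fold differences between the highest and the lowest array ran from 1.06 for Mdm2 to 1.24 for Gadd45b over the 9 genes. The dim probes of Phlda3, Tp53inp1 and Cdkn1a had the larger error estimates, up to 12%, 11.7% and 11.9%.

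The median SD was 0.070 on the log2 scale for the 9 genes and 0.093 for all 8685 detected genes, and 3 of the 9 lay above the median of all. From median signals with normexp correction the order turned round, with a median SD of 0.104 for the 9 genes and 0.0988 for all. At the scaling used, the SD ran from 0.037 for Mdm2 to 0.14 for Gadd45b, at the 8.58 and 72.4 percentile of all detected genes. The order of the 9 depended on the processing. With spike-in scaling the SD ran from 0.059 for Plk3 to 0.19 for Tp53inp1, and with normexp correction from 0.042 for Cdkn1a to 0.14 for Tp53inp1. Without replicate 4 it ran from 0.0029 for Bbc3 to 0.12 for Phlda3. For Gadd45a, Gadd45b, Ccng1, Plk3 and Bbc3, replicate 4 lay farthest from the other arrays, so leaving it out lowers their SD in any case. The SD of Cdkn1a is that of the mean of 2 probes whose highest and lowest arrays differed. At the scaling used it was 0.038, below the 0.053 and 0.12 of the single probes. No gene of the 9 spanned over 2-fold, against 1.11% of all detected genes. With a share that low, the absence of such a gene among 9 says little. For 8 detected probes of Agilent's spike-in controls, RNAs of the labelling kit and not of the cells, the SD ran from 0.083 to 0.32 with a median of 0.11. Scaled on those spike-in probes, the median SD was 0.12 for the 9 genes and 0.13 for all, and without replicate 4 it was 0.032 for the 9 and 0.080 for all. The histogram of SD places each gene.

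**Figure D4:**
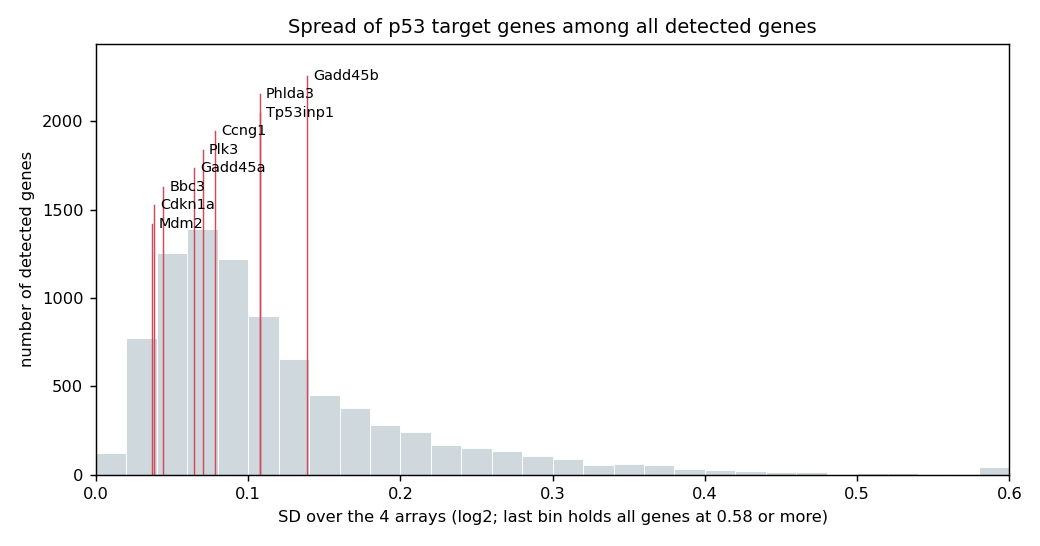
Number of detected genes (bars, 8685 in all) by SD over the 4 arrays on the log2 scale, with a red line for each of the 9 p53 target genes. The lines run from 0.037 for Mdm2 to 0.14 for Gadd45b, at the 8.58 and 72.4 percentile of all detected genes.

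Replicate 4 was highest or lowest for 8 of the 9 genes, and for 55.5% of all detected genes. Replicate 1 was so for 6 of the 9, and for 56.8% of all. Replicate 4 was highest for 5 of 9, namely Mdm2, Gadd45a, Ccng1, Bbc3 and Tp53inp1, and lowest for 3, namely Gadd45b, Plk3 and the mean of both Cdkn1a probes, of which the one with 10 spots was lowest on replicate 2 instead. Under all of the other scalings, background correction and spot filter tried, Gadd45a, Ccng1 and Bbc3 stayed highest and Gadd45b and Plk3 lowest on replicate 4. Mdm2, Tp53inp1 and Cdkn1a did not keep their place under each of them. The deviations on replicate 4 ran from -0.20 for Gadd45b to 0.12 for Ccng1 and Tp53inp1, with a median of 0.036 over the 9 genes and 0.008 over all detected genes.

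The wider p53 pathway was described with 44 other genes in lists of regulators and targets, of which 36 had a probe. Of these, 27 (75%) were well above background on all 4 arrays, beside 52.4% of all named genes. The looser detection flag gave 30. These lists, too, were chosen with earlier results of these data known, so the share is a description only. The median SD of the 27 genes was 0.097, against 0.093 for all detected genes. Levels below are means of a gene's detected probes. Rchy1, Fas and Xpc had lower mean levels than any probe of the target genes above, and the part of dimness in their SD was not tested.

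Among regulators of p53, 10 of 12 measured genes were detected, with a median SD of 0.12. Cop1, a ubiquitin ligase that targets p53, read -0.33, -1.68, -0.59 and -0.46 on replicates 1 to 4, and was the only gene of the 27 that spanned over 2-fold, at 2.55-fold. The low value was that of replicate 2, read by 1 probe printed once per array, so the difference was not tested over replicate spots. Rchy1, another p53 ubiquitin ligase, was at -5.10 ± 0.26. The deubiquitinase gene Usp7, whose product stabilises Mdm2 and p53, was at -1.43 ± 0.053, and Mdm4, a partner of Mdm2 that blocks p53 activity, at -1.51 ± 0.060 (SD, n = 4 each). The p53-binding repair factor gene Tp53bp1 was above background on no array. The checkpoint kinase gene Chek1, named after its value was seen, was detected on 2 arrays.

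Of the targets that act in arrest and stress, 3 of 7 measured genes were detected on all arrays, with a median SD of 0.14. Gdf15, a secreted stress cytokine, was at 2.22 ± 0.14, Sesn2, a sestrin that restrains mTORC1, at -1.38 ± 0.16 and Ccng2, the relative of Ccng1, at -2.02 ± 0.13 (SD, n = 4 each). The antiproliferative gene Btg2, the family member Gadd45g, the kinase gene Plk2 and the RNA-binding protein gene Zmat3 were above background on no array. Within the Gadd45 family, Gadd45a and Gadd45b were thus detected on all arrays and Gadd45g on none.

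Apoptosis targets were detected for 7 of 9 measured genes, with a median SD of 0.088. Bax, the pore-forming protein of mitochondrial apoptosis, was at 2.61 ± 0.020, and Triap1, an inhibitor of apoptosis, was at -1.97 ± 0.063 (SD, n = 4 each). The death receptor gene Fas was at -5.41 ± 0.20 and Ei24 at -3.34 ± 0.10. Pmaip1, which encodes the BH3-only protein Noxa, and the membrane protein gene Perp were above background on no array, whereas Bbc3 was detected on all. The 2 Bax probes and 1 probe of Aen, a gene named after its values were seen, that were printed several times did not pass the limma F test (adjusted p from 0.366 to 0.992), and 0 had an unadjusted p under 0.05.

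Targets in DNA repair and metabolism were detected for 7 of 8 measured genes, with a median SD of 0.093. Ddb2, a sensor of ultraviolet damage, was at -0.34 ± 0.045, the glutaminase gene Gls2 at -1.48 ± 0.071, the bypass polymerase gene Polk at -1.92 ± 0.14 and Xpc, which recognises damaged DNA, at -4.82 ± 0.30 (SD, n = 4 each). The ribonucleotide reductase gene Rrm2b was above background on no array. The plot of SD by list sets these groups beside the 9 genes.

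**Figure D5:**
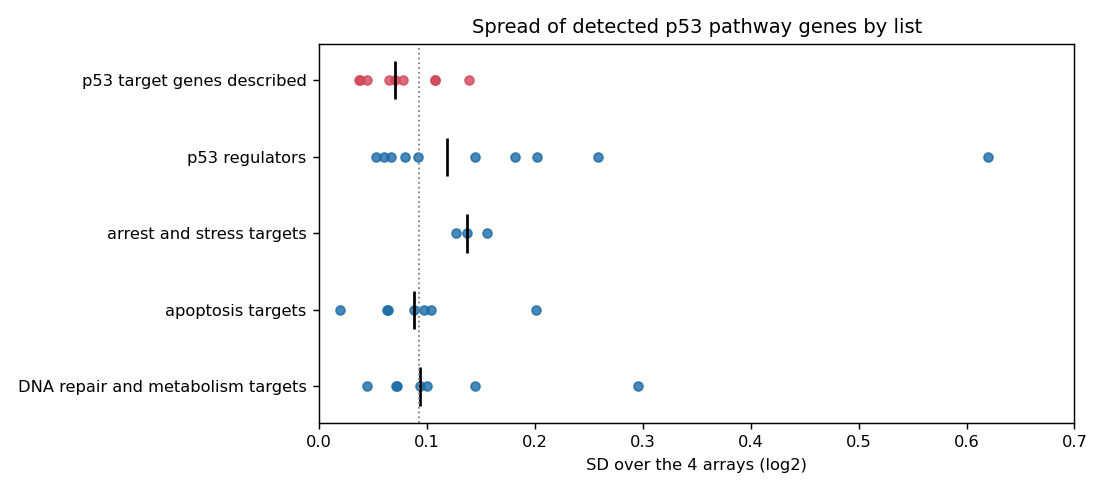
SD over the 4 arrays on the log2 scale for each detected gene (points), by list, with the median of each list as a black bar and that of all detected genes (0.093) as a dotted line. The 9 p53 target genes (red) lie between 0.037 and 0.14, and Cop1, at 0.62 among the regulators, is the point farthest right.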

How the data were processed

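The deposited files are Agilent Feature Extraction 11.0.1.1 outputs, 1 per array (submitters' processing notes). Their processed signals are intensity values that the authors' software background-subtracted and detrended within each array, per the file headers, with no normalization between arrays. The array was designed on build rn4, so only the promoter windows carry coordinates, from RefSeq on GRCr8.

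Control spots and outlier spots were left out, log2 signals were averaged over the spots of a probe, and a probe was detected where most usable spots were well above background. Each array detected 40.8% to 43.7% of probes, so it was scaled to the 75th percentile of the probes detected on all arrays. A gene's level is the mean of its detected probes. Spread is the SD over 4 arrays, whose number limits the precision. Array differences were fitted over replicate spots in R 4.3.3 with limma 3.58.1 (moderated F test, array as factor, Benjamini-Hochberg adjustment over 1742 probes), after a check on simulated data. Promoters were searched in Python 3.11.15, and figures drawn with matplotlib 3.10.9.

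The 9 genes and all lists were chosen with earlier results of these data known. Named genes are the 9 with every probe and, per pathway list, the 2 with the largest and the 2 with the smallest SD and those detected on no array, with the markers; Chek1 and Aen were named outside this rule, after their values were seen.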

Additional observations from a re-analysis of the deposited data

Results flagged for a closer look

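Whether 1 array stood apart from the other 3 was judged by Dixon's ratio (95% critical value) in 26 series, the 10 probes, the gap between the Cdkn1a probes and 15 named pathway genes. Chance alone passes about 1 in 20 series, and 2 passed, both on replicate 4. Ccng1 was at -1.09 on replicate 4, against -1.25 to -1.24 on the other arrays. Bbc3 was at 1.24 on replicate 4, against 1.15 to 1.16 on the others. Both genes were also highest on replicate 4 under the other scalings tried, which does not show that replicate 4 stood apart there. Dixon's ratio is given only for the scaling used. With spike-in scaling the SD rose from 0.044 to 0.12 for Bbc3 and from 0.078 to 0.15 for Ccng1. With normexp correction it was 0.128 for Bbc3 and 0.089 for Ccng1. The probe of either gene has 1 spot per array, so no spread over spots was measured. The scanner software's error estimate was 10.0% of the signal, and the part of error in the result was not tested.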

How the results depend on the processing

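Under every alternative tried 9 of 9 genes and 27 to 30 pathway genes were detected. The looser flag, detection by any spot or on at least 3 arrays, and leaving out a replicate can only keep or add detected genes. These alternatives could therefore not lower the counts and are no test of detection. Keeping outlier spots could have lowered them and did not. No gene of the 9 spanned over 2-fold under any alternative for it. The median SD of the 9 genes was 0.12 when arrays were scaled on the spike-in probes, where that of all detected genes was 0.13, 0.104 with normexp correction, where that of all was 0.0988 and so lower, and 0.032 to 0.085 when single replicates were left out, lowest without replicate 4. The number of the 3 probes that differed between arrays was 0 to 1 when single replicates were left out, the 1 being Gadd45b without replicate 2, and 0 under the other alternatives. The gap between the Cdkn1a probes was 5.49 from median signals with normexp correction and an offset of 50, which lifts dim values, and 6.37 to 6.48 when single replicates were left out. Of 108 SD values of single genes under alternatives, 15 moved by over 1.5 times, 6 of them with spike-in scaling. Over the whole array, 746 probes differed between arrays, and 222 did from median signals with normexp correction. The same alternative gave 21 genes over 2-fold, against 96. The alternatives for the 2-fold span, and leaving out replicates for detection, were added after seeing the data. Samples could not be paired because all form 1 group. Spots at the same place on different arrays were not paired in the F test. Signal over background limits Phlda3, Tp53inp1 and the dim Cdkn1a probe. The pathway genes Rchy1, Fas and Xpc had lower mean levels still, and their signal over background is not given here.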
